A study of Mus musculus with 8 samples.

Results

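Small nucleolar RNAs (snoRNAs) encoded outside the imprinted clusters were examined in adult mouse brain after fetal alcohol exposure (FAE). They were chosen by annotation alone: every probe set whose gene symbols all begin with Snora or Snord and a number was kept, and the Snord113 to Snord116 families were left out. This gave 58 probe sets of 35556 on the array, 23 for H/ACA snoRNAs (20 symbols) and 35 for C/D snoRNAs (32 symbols or symbol pairs). All 58 were kept whatever their level, and they belong to the 23410 probe sets with a gene symbol over which every test was run. Expression had been measured on Affymetrix Mouse Gene 1.0 ST arrays as log2 values after robust multi-array averaging (RMA), so that a difference of 1 on this scale is a change by a factor of 2. There were 8 arrays in 4 groups, each array carrying pooled RNA from the whole brains of 3 male C57BL/6J mice at postnatal day 70. Dams of the early ethanol group received 2 doses of 2.5 g/kg ethanol, 2 hours apart, on each of gestational days 8 and 11, and dams of the late ethanol group received the same on gestational days 14 and 16. Each had a saline group injected on the same days, and each of the 4 groups held 2 arrays. Because mice were pooled, P values measure the spread between pools. For each probe set that spread was estimated once over all 8 arrays. Standard errors (SE) and P values of one timing therefore also depend on the arrays of the other. Total RNA had been extracted with Trizol and cleaned on a silica column of a kind that, in standard use, retains short RNA poorly, and how much of it was retained was not measured here. Less RNA per cell and fewer cells carrying it cannot be told apart in such samples, nor can an excised snoRNA and the unspliced transcript of its host gene.

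snoRNAs are short nuclear RNAs that pair with other RNAs and direct proteins to them. C/D snoRNAs, named for their C and D boxes, are bound by fibrillarin, which 2′-O-methylates the ribose at the paired position of ribosomal RNA, while H/ACA snoRNAs are bound by dyskerin, which converts uridine to pseudouridine. A few of both classes, among them U17, U14, U8 and U22, are needed for cutting the ribosomal RNA precursor rather than for modifying it. In mammals most are processed from introns of host genes, which are often ribosomal protein or translation factor genes, or noncoding genes such as Gas5 and the Snhg family whose spliced RNA has no known protein product. Many host genes belong to the class whose transcripts begin with a run of pyrimidines.

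In the RefSeq gene table of GRCm38.p6, 44 genes contained the measured snoRNAs, and 32 of them had an entry in the table of promoters. The starts of 6 hosts whose snoRNAs carry the results are shown from 40 bases before the annotated start to 20 bases after it, 5′ to 3′ on the host's strand. Capitals mark the longest run of C and T that reaches the 20 bases centred on the start. These hosts were picked because their snoRNAs are described most fully.
Snhg12, host of Snora16a and Snora44 (chr4:132308638-132308697, + strand): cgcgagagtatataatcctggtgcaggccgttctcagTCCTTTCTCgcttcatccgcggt
Snhg3, host of Snora73a and Snora73b (chr4:132353667-132353726, minus strand): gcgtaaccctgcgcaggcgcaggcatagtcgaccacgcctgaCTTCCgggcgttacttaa
2410006H16Rik, host of Snord49a and Snord49b (chr11:62602837-62602896, + strand): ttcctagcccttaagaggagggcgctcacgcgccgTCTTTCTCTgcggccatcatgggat
Gas5, later of the annotated starts, host of Snord47 (chr1:161035126-161035185, + strand): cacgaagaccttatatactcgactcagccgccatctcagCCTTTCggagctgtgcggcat
Rps3a1, host of Snord73a and Snord73b (chr3:86142649-86142708, minus strand): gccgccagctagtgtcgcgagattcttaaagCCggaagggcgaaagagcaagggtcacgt
Rack1, host of Snord95 and Snord96a (chr11:48800320-48800379, + strand): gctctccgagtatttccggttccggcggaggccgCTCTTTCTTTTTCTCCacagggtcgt
Such a run of at least 6 bases was found at 19 of 34 annotated starts of the containing genes (55.9%), some genes having more than 1 start, against 29.2% of all 32851 promoters of the table. The starts of ribosomal protein hosts had it at 6 of 11. The Snhg12, 2410006H16Rik, Gas5 and Rack1 starts shown have one, while those of Snhg3 and Rps3a1 have only shorter runs (5 and 2 bases). The earlier Gas5 start, which is not shown, has a run of only 3 bases. These are descriptions of letters in a window, read against the table's own share.

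Levels were compared only within a timing, since those of the early and late arrays are on different footings. Array medians over the whole table lay at 6.74 to 6.84 in the early set and 7.21 to 7.30 in the late set. The spread behind SEs and P values was still estimated over both sets, and early minus late compares differences rather than levels. All 8 neuronal, all 6 astrocyte and all 5 measured oligodendrocyte marker genes were above background in both timings, where background is the level that 95% of 1210 probe sets for smell receptors, little used in brain, do not pass (6.49 early and 7.46 late). By that rule 38 of the 58 snoRNA probe sets were above background in the early arrays (16 H/ACA and 22 C/D), against 58.4% of all tested. In the late arrays 25 were (8 H/ACA and 17 C/D), against 51.7% of all tested. Markers of nasal glands and of the olfactory bulb and sensory neurons moved in the early comparison. All 5 measured nasal gland genes were higher after ethanol (median 1.59 on the log2 scale), 2 of them being above background. All 5 were past the study's thresholds, an unadjusted P under 0.05 and a change of at least 1.2-fold. All 9 olfactory genes were lower (median −0.53), 7 of them past the thresholds. In the late comparison the median was −0.042 for nasal gland genes, 0 of them above background. For olfactory genes it was −0.22, with 2 of the 9 past the thresholds, both lower. All 5 nasal gland genes were highest in early ethanol replicate 1 among the early arrays. Of the 9 olfactory genes, 7 were highest in early saline replicate 2 and 2 in early saline replicate 1. All 5 oligodendrocyte genes were higher after early ethanol (median 0.15) and lower after late ethanol (median −0.12), with 0 past the thresholds in either comparison. The part of these tissues and cells in the snoRNA values was not tested.

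For many snoRNAs 1 array stood apart from the other 3 early arrays. Early saline replicate 1 had the highest of the 4 early values in 30 of 58 snoRNA probe sets (51.7%), against 34.8% of all tested. In 15 of the 58 it lay above each of the other 3 early arrays by more than 0.3 log2 units, a limit set after the values had been seen, and in these its lead over the next array was 0.37 to 1.12. The same was true of 184 of 23410 tested probe sets (0.786%). None of the other early arrays led in this way for any of the 58, although over all tested probe sets early ethanol replicate 1 did so for 180, early ethanol replicate 2 for 292 and early saline replicate 2 for 46. The 15 comprised 5 H/ACA and 10 C/D probe sets, and all of them were above background by the mean of the 4 early arrays. That mean includes early saline replicate 1, the array by which they were chosen. Snord49a was above the limit of 6.49 only through it, with 6.35 and 6.49 in early ethanol brains and 6.36 in early saline replicate 2. The median distance between the 2 early saline arrays was 0.27 over the 58, against 0.12 between the 2 early ethanol arrays. In the late groups it was 0.15 for both ethanol and saline, and over all tested probe sets it lay between 0.090 and 0.11 in the 4 groups.

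**Figure D1:**
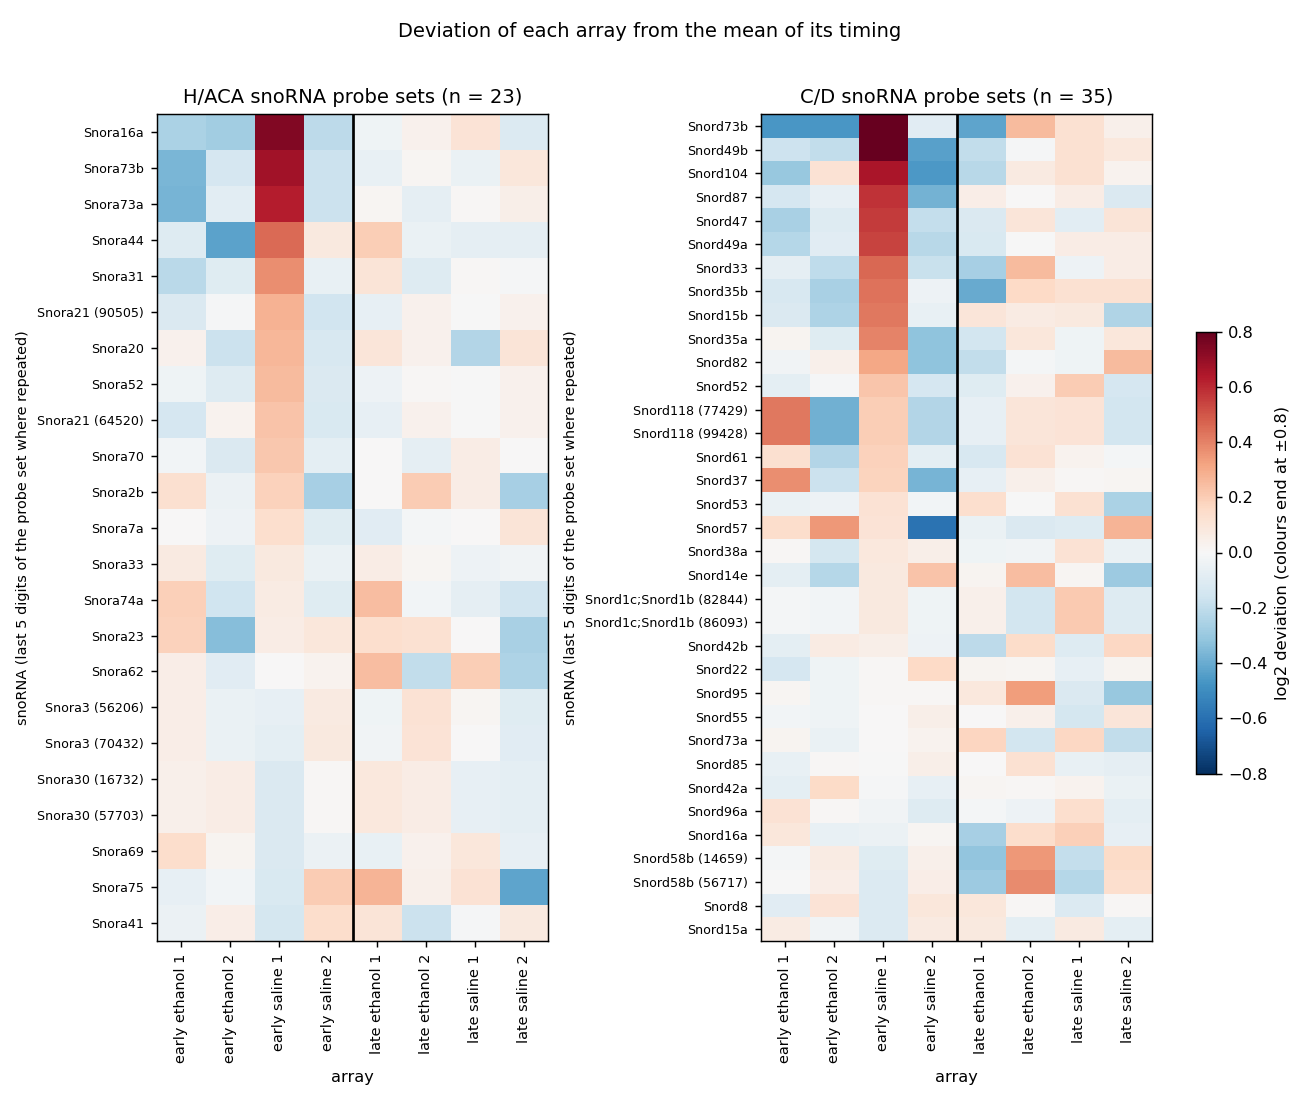
Deviation of each array (columns, ethanol left of saline within each timing) from the mean of the 4 arrays of its timing, in log2 units, for the 23 H/ACA and 35 C/D snoRNA probe sets (rows, ordered by how far early saline replicate 1 lay above the other early arrays). The upper rows are red in the column of early saline replicate 1, where it led by more than 0.3 in 15 of the 58; in the late arrays such a lead was seen for 1 of the 58.

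The 15 were spread over several chromosomes and hosts. Of the probe sets whose host includes a noncoding gene, 9 of 15 were among them, against 6 of 41 with protein-coding hosts only, of which 5 lie in ribosomal protein genes and 1 in Tpt1, the gene of a translationally controlled tumor protein. The median lead of early saline replicate 1 over the mean of the other 3 early arrays was 0.72 for snoRNAs whose host includes a noncoding gene, 0.085 for those of ribosomal protein hosts and 0.026 over all tested probe sets. Of 336 miRNA probe sets 1 passed the limit of 0.3, and of 24 Snord116 probe sets, the imprinted C/D snoRNAs left out here, none did. The Snord116 probe sets moved together and are not separate cases: all 24 were highest in early ethanol replicate 2. For them early saline replicate 1 lay below the mean of the other 3 early arrays (median −0.35). Among 4 probe sets for small Cajal body RNAs, relatives of snoRNAs that guide modification of spliceosomal RNA, 2 passed it, both for Scarna17 and with identical values. In Scarna17 the lead over the next early array was 1.15.

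With all 4 early arrays, H/ACA snoRNAs had a median difference of −0.086 (ethanol minus saline), with 17 probe sets lower and 6 higher after ethanol. C/D snoRNAs had a median of −0.048, with 23 lower and 12 higher. Over all tested probe sets the median was −0.020 and 59.8% were lower. At the study's thresholds 3 of the 58 were lower after ethanol (1 H/ACA and 2 C/D) and none was higher, against 0.645% lower and 0.278% higher of all tested. Both ethanol arrays lay below both saline arrays in 11 of the 58, against 18.9% of all tested, and above both in 5, against 7.5%. A change of 1.2-fold in either direction was seen in 14 of the 58, against 2.79% of all tested. After Benjamini-Hochberg adjustment of the limma P values over 23410 probe sets no snoRNA passed 0.05, nor did any other probe set (0% of all tested; 1.71% of all tested and 3 of the 58 had an unadjusted P under 0.05).

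Without early saline replicate 1 the medians were 0.013 for H/ACA (11 lower and 12 higher after ethanol) and 0.015 for C/D (16 lower and 19 higher), against −0.013 over all tested probe sets, of which 55% were lower. In this comparison 3 C/D probe sets passed the study's thresholds, Snord14e lower and Snord57 and Snord87 higher, and no H/ACA probe set did, against 0.79% lower and 1.03% higher of all tested. Without early saline replicate 2 instead, 9 H/ACA and 10 C/D probe sets passed, all lower after ethanol, against 2.62% of all tested. In either of these fits the single remaining saline array is taken to vary like the other groups. Among the 15 probe sets led by early saline replicate 1, the early difference was −0.93 to −0.075 with all arrays (median −0.36), and −0.37 to 0.36 without that array (median −0.057, with 8 lower and 7 higher). They were chosen for the high value of that array, so the lower values with it and their shift without it follow from the choice and are given only as a description. In the other 43, the median early difference was −0.019 with 25 lower, and only Snord57 and Snord14e differed by more than 0.3.

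**Figure D2:**
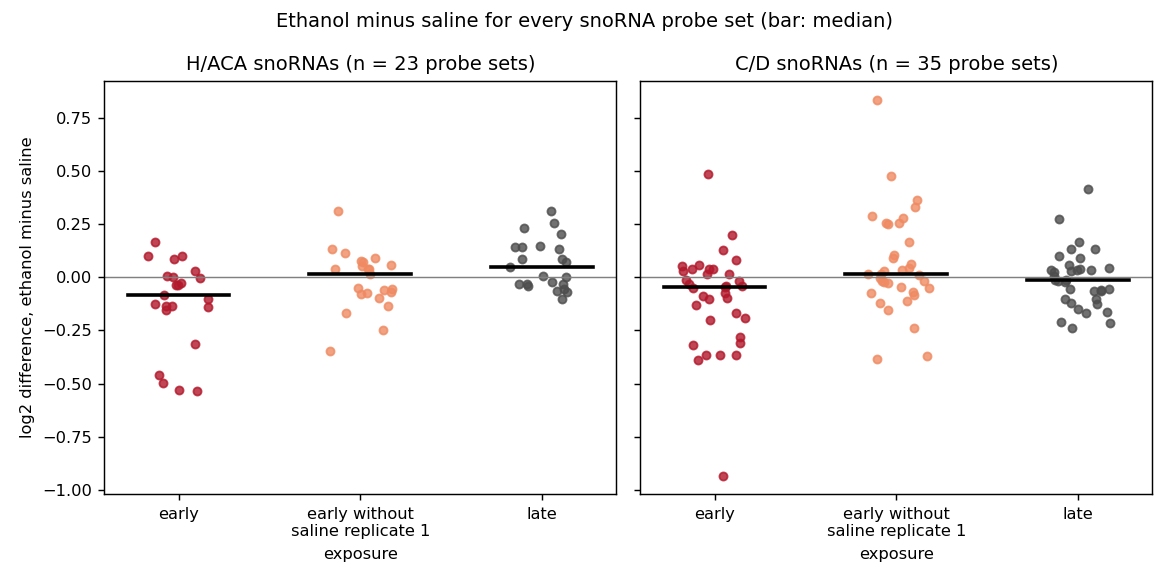
Difference between ethanol and saline brains (log2, ethanol minus saline) for each H/ACA (left, n = 23) and C/D (right, n = 35) snoRNA probe set after early exposure, after early exposure without saline replicate 1, and after late exposure; bars are medians. The tail of lower values after early exposure, down to −0.93, is shortened when that array is left out, and the medians lie at 0.013 and 0.015.

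Among H/ACA snoRNAs, Snora44 was the only one past the study's thresholds. It guides pseudouridylation and lies in Snhg12, a noncoding host on chromosome 4. Snora44 measured 7.59 and 7.27 in early ethanol brains, against 8.15 and 7.78 in early saline brains. The groups did not overlap, and the difference was −0.53 ± 0.15 (SE), 1.45-fold lower after ethanol (adjusted P = 1). Without early saline replicate 1 it was −0.35 and without early ethanol replicate 2 it was −0.37, and neither passed, so the call rests on both of these arrays. In the unmoderated test on the 4 early arrays alone, which is nearest to the study's own, none of the 58 passed.

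Its neighbour Snora16a, also in Snhg12, measured 7.92 and 7.89 in early ethanol brains, against 8.91 and 7.96 in early saline brains. The groups did not overlap, but the difference of −0.53 ± 0.25 became −0.057 without early saline replicate 1. Snora73a and Snora73b are the U17 snoRNAs, needed for cutting the precursor of 18S ribosomal RNA, and both lie in Snhg3. Snora73b measured 7.86 and 8.09 in early ethanol brains, against 8.90 and 8.05 in early saline brains, and differed by −0.50 ± 0.23. Its standard deviation (SD) was 0.16 in early ethanol and 0.60 in early saline brains. In the late groups, which enter the same SE, it was 0.050 and 0.10, so the SE understates the early spread. Snora73a measured 7.67 and 7.96 in early ethanol brains, against 8.67 and 7.87 in early saline brains, and differed by −0.46 ± 0.22. In both, saline replicate 2 lay among the ethanol arrays, and without saline replicate 1 the differences were −0.076 and −0.058. Snora31, from Tpt1, followed the same order, with 7.09 and 7.20 in early ethanol brains and 7.67 and 7.24 in early saline brains (−0.31 ± 0.14; −0.097 without saline replicate 1).

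The remaining H/ACA probe sets differed by −0.15 to 0.17 in the early comparison. They include those of Snora7a, Snora52 and Snora3, housed in the ribosomal protein genes Rpl32, Rplp2 and Rpl27a, all of them above background. Snora7a measured 10.69 and 10.64 in early ethanol brains, against 10.82 and 10.59 in early saline brains. Snora69, from Rpl39 on the X chromosome, was highest in the ethanol arrays without overlap, with 7.92 and 7.80 in early ethanol brains and 7.66 and 7.73 in early saline brains (0.17 ± 0.091). Snora23, from the importin gene Ipo7, measured 10.34 and 9.81 in early ethanol brains, against 10.21 and 10.24 in early saline brains, the distance between its ethanol arrays being the largest in that class.

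Among C/D snoRNAs, Snord73b had the lowest difference of all 58 probe sets. It lies in the ribosomal protein gene Rps3a1 on chromosome 3 and is a methylation guide. Snord73b measured 7.94 and 7.94 in early ethanol brains, against 9.44 and 8.32 in early saline brains. Both saline arrays were above both ethanol arrays, and the difference was −0.93 ± 0.33 (SE), 1.91-fold lower after ethanol (adjusted P = 1). Without early saline replicate 1 it was −0.37 and did not pass, and without early saline replicate 2 it was −1.49 and passed. The call was also lost when either ethanol array was left out, at differences of −0.93 each time.

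Snord14e was the other C/D snoRNA past the thresholds and did not turn on early saline replicate 1. It is a copy of U14, which takes part both in cutting the precursor of 18S ribosomal RNA and in methylating it, and it lies in Hspa8, the gene of a constitutive heat shock protein of the 70-kDa family. Snord14e measured 9.59 and 9.44 in early ethanol brains, against 9.75 and 9.90 in early saline brains. The groups did not overlap and the difference was −0.31 ± 0.13, 1.24-fold lower after ethanol (adjusted P = 1). It was −0.38 without early saline replicate 1 and still passed, but the call was lost without early saline replicate 2 (−0.23) and without early ethanol replicate 2 (−0.24). It was also lost after centring each array on its median (−0.29), after quantile normalization over all 8 arrays (−0.28) and when probe sets without a symbol were tested too (−0.31).

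The other C/D snoRNAs led by early saline replicate 1 lie in noncoding and ribosomal protein hosts. Snord49a and Snord49b share the noncoding host 2410006H16Rik. Snord49b measured 9.70 and 9.67 in early ethanol brains, against 10.67 and 9.44 in early saline brains, and its difference of −0.36 ± 0.31 became 0.25 without saline replicate 1. Snord49a measured 6.35 and 6.49 in early ethanol brains, against 7.12 and 6.36 in early saline brains. In both, saline replicate 2 lay among or below the ethanol arrays, so the groups overlapped. Snord47, the only measured snoRNA of Gas5, measured 8.95 and 9.11 in early ethanol brains, against 9.77 and 9.02 in early saline brains, and differed by −0.37 with all arrays and by 0.008 without saline replicate 1. Snord104, from the noncoding gene Gm36220, measured 11.49 and 11.91 in early ethanol brains, against 12.44 and 11.33 in early saline brains. Its difference was −0.19 with all arrays and 0.36 without saline replicate 1, so its direction turned. Snord87, from Snhg6, turned likewise, at −0.20 with all arrays and 0.28 without it.

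Among ribosomal protein hosts, Snord15b of Rps3 measured 7.71 and 7.58 in early ethanol brains, against 8.25 and 7.76 in early saline brains (−0.36 ± 0.16; −0.12 without saline replicate 1), and the groups did not overlap. Snord33 and Snord35a, from introns of Rpl13a and known in cultured cells for a part in the response to lipid and oxidative stress, did overlap. Snord33 measured 6.71 and 6.57 in early ethanol brains, against 7.24 in early saline replicate 1, while saline replicate 2 lay between the ethanol arrays. Snord35a measured 8.15 and 8.03 in early ethanol brains, against 8.52 and 7.80 in early saline brains, and its difference was −0.075 with all arrays and 0.29 without saline replicate 1.

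**Figure D3:**
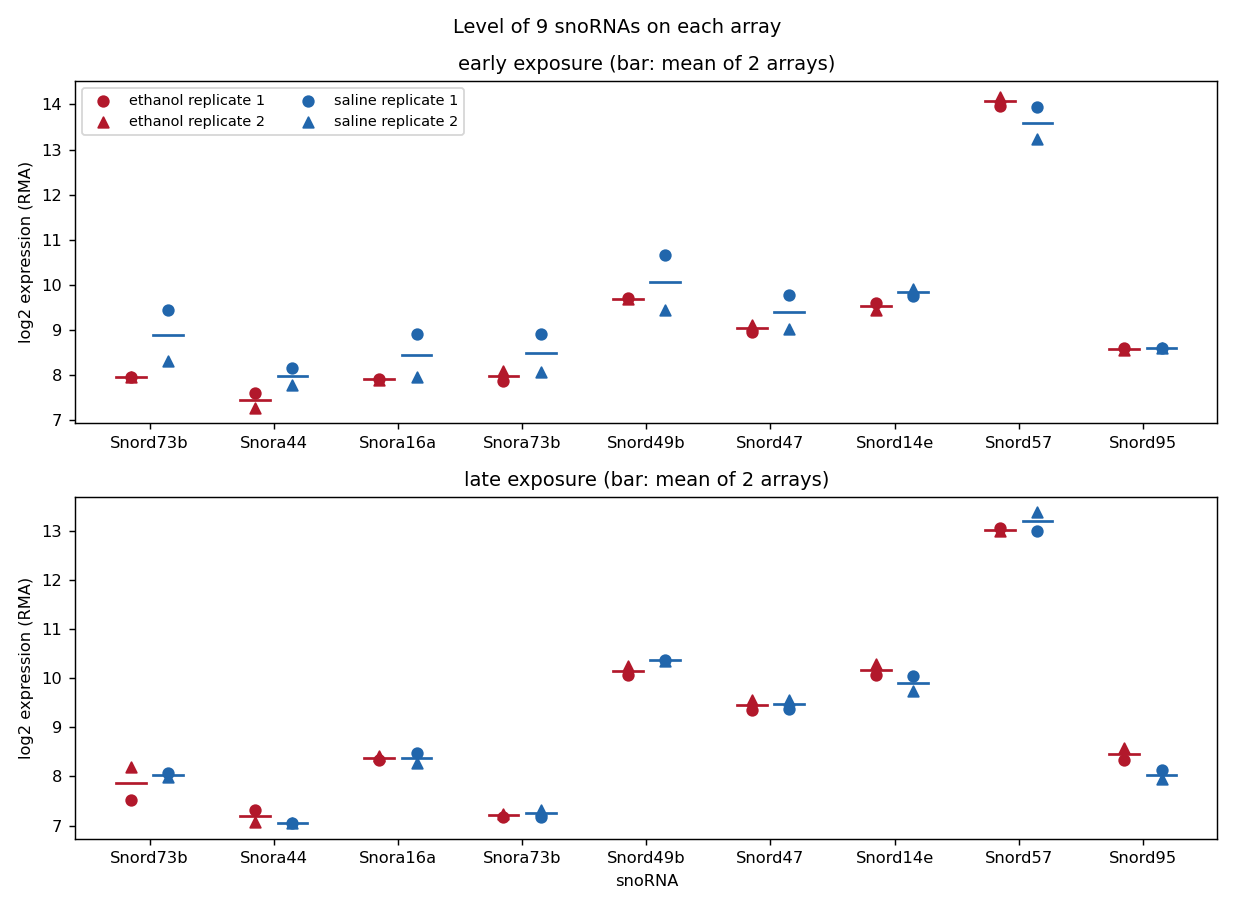
Level of 9 snoRNAs on each array (log2 RMA values) after early exposure (above) and late exposure (below), with ethanol in red left of saline in blue, circles for replicate 1, triangles for replicate 2 and bars for group means. Early saline replicate 1 stands above the other 3 early arrays for Snord73b, Snora44, Snora16a, Snora73b, Snord49b and Snord47, while Snord14e, Snord57 and Snord95 do not show this.

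Snord57 differed in the opposite direction. It is a methylation guide from an intron of Nop56, which itself encodes a core protein of C/D particles. Snord57 measured 13.97 and 14.17 in early ethanol brains, against 13.94 and 13.24 in early saline brains, and was 1.40-fold higher after ethanol (0.48 ± 0.22). Here early saline replicate 2 was the array apart: the difference was 0.83 (adjusted P = 1.00) without saline replicate 1 and 0.13 without saline replicate 2. Snord96a of Rack1, the gene of a ribosome-bound scaffold protein also called Gnb2l1, was also higher without overlap (6.21 and 6.10 in early ethanol brains, 6.06 and 5.99 in early saline brains), at levels not above background.

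Of the snoRNAs needed for cutting ribosomal RNA precursors, 6 of 14 listed symbols were measured, by 7 probe sets. In the early comparison 5 of the 7 were lower and 2 higher (median −0.17), and 1, Snord14e, passed the thresholds. Besides U17 and U14 these were U3 (Rnu3a), U8 (Snord118) and U22 (Snord22), none of them above background. Rnu3a begins with neither Snora nor Snord, so it lies outside the set chosen by annotation, but the counts and median given here include it. It measured 5.41 and 5.48 in early ethanol brains, against 5.66 and 5.42 in early saline brains (−0.097 ± 0.13). Snord22, from Snhg1, measured 5.50 and 5.60 in early ethanol brains, against 5.64 and 5.79 in early saline brains (−0.17 ± 0.086). Snord118 has 2 probe sets with identical values, which differed by 0.039 ± 0.25 with overlapping groups.

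After late exposure the 58 probe sets differed by −0.24 to 0.42, against −0.93 to 0.48 after early exposure. H/ACA snoRNAs had a median of 0.049 (13 probe sets higher and 10 lower after ethanol) and C/D snoRNAs of −0.015 (16 higher and 19 lower; 0.0057 after centring each array on its median), against −0.0067 over all tested, of which 52.7% were lower. At the study's thresholds 1 of 58 was higher, the C/D snoRNA Snord95, and none was lower, against 0.44% higher and 0.722% lower of all tested, so the count is near the background. Both ethanol arrays lay above both saline arrays in 9 of the 58, against 12.7% of all tested, and below both in 3, against 15.7%. A change of 1.2-fold was seen in 3 of the 58, against 2.86% of all tested. None passed after adjustment, nor did any other probe set (0% of all tested; 2.49% of all tested and 1 of the 58 had an unadjusted P under 0.05).

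Snord95, a methylation guide from Rack1, measured 8.33 and 8.58 in late ethanol brains, against 8.13 and 7.95 in late saline brains. The groups did not overlap, and it was 1.33-fold higher after ethanol (0.42 ± 0.11, adjusted P = 1). Leaving out each late array in turn gave 0.29 to 0.54, past the thresholds each time. In the unmoderated test on the 4 late arrays alone it did not pass. In the early arrays Snord95 was level, with 8.60 and 8.55 in ethanol brains and 8.60 and 8.60 in saline brains. Snord96a, also in Rack1, measured 5.90 and 5.88 in late ethanol brains, against 6.05 and 5.84 in late saline brains, not above background.

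None of the other late differences passed the study's thresholds. Snord14e measured 10.06 and 10.28 in late ethanol brains, against 10.05 and 9.75 in late saline brains, higher after ethanol without overlap by a narrow margin (0.27 ± 0.13). Snora75, from an intron of the nucleolin gene Ncl, measured 7.18 and 6.95 in late ethanol brains, against 7.02 and 6.48 in late saline brains, the largest H/ACA difference (0.31 ± 0.18) and at background. Snora23 measured 10.75 and 10.74 in late ethanol brains, against 10.62 and 10.36 in late saline brains, without overlap (0.25 ± 0.16). Snora74a of Snhg4 measured 8.14 and 7.88 in late ethanol brains, against 7.82 and 7.74 in late saline brains, also without overlap (0.23 ± 0.14). Among lower values, Snord49b was lower without overlap, with 10.06 and 10.25 in late ethanol brains and 10.38 and 10.35 in late saline brains (−0.21 ± 0.31). That SE includes the wide early saline SD of 0.87, while the late SDs were 0.13 in ethanol and 0.025 in saline brains. The 15 snoRNAs led by early saline replicate 1 differed by −0.24 to 0.16 in the late comparison (median −0.043, 11 lower), and in the late arrays a lead of more than 0.3 over each other array was seen for 1 of the 58 probe sets.

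The early and late differences of the snoRNAs were weakly correlated: over the 55 probe sets with distinct values Pearson's r was 0.12 and Spearman's rho 0.12, as a description across probe sets that share their arrays. In the test of the early effect minus the late effect, 3 of 58 had an unadjusted P under 0.05, against 2.06% of all tested, and none passed after adjustment (0% of all tested). Snora44 measured 7.32 and 7.06 in late ethanol brains, against 7.05 and 7.05 in late saline brains (0.14 ± 0.15), none of them above background. The late groups were barely apart, and without late ethanol replicate 1 the late difference was 0.017. Its early minus late effect was −0.68 ± 0.22 (adjusted P = 1.00). Snord14e had −0.58 ± 0.18 (adjusted P = 1.00) and Snord95 −0.44 ± 0.15 (adjusted P = 1.00). Ethanol and saline arrays were without overlap in both timings, but in opposite directions, for 2 of the 58 (Snora44 and Snord14e), against 3.84% of all tested. The groups were without overlap in both timings and in the same direction for 2, against 3.07%, both being probe sets of Snora30 with identical values, higher after ethanol by 0.10 in the early and 0.14 in the late comparison.

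snoRNAs were set beside the genes that contain them. A probe set with the host's symbol alone was found for 26 of the 44 containing genes, giving 31 distinct pairs. In the early comparison the snoRNAs differed by −0.93 to 0.48 and the hosts by −0.14 to 0.20, and the snoRNA's difference was the larger in 19 of 31 pairs (r = 0.075 and rho = 0.027, across pairs that share their arrays). In the late comparison r was −0.25 and rho −0.27. The lead of early saline replicate 1 over the mean of the other early arrays was −0.19 to 1.37 for the snoRNAs and −0.16 to 0.27 for the hosts (r = 0.11 and rho = 0.24). For Snord73b this lead was 1.37, while its host Rps3a1 measured 9.05 and 9.06 in early ethanol brains and 9.06 and 9.14 in early saline brains. For Snord47 it was 0.74, against 0.25 for the median of the 4 Gas5 probe sets. Snhg12, Snhg3 and 2410006H16Rik had no probe set of their own symbol alone and were not compared.

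**Figure D4:**
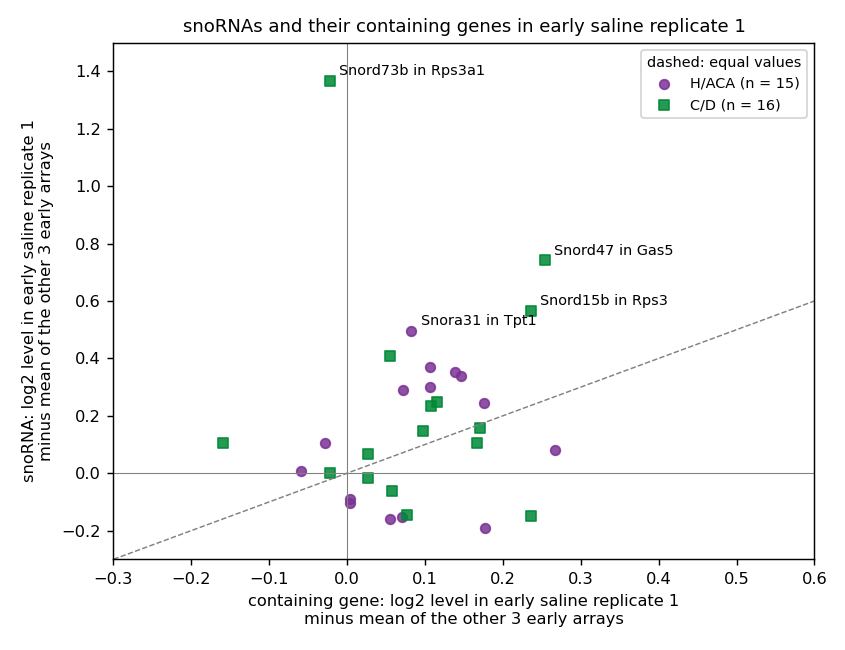
Level in early saline replicate 1 minus the mean of the other 3 early arrays (log2) for 15 H/ACA and 16 C/D snoRNAs (vertical) and for the gene that contains each (horizontal); the dashed line marks equal values. Hosts lie between −0.16 and 0.27, while snoRNAs reach 1.37 (Snord73b in Rps3a1).

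snoRNAs from introns of the same host did not always move alike. Of the pair in Rps3a1, Snord73a was at background and level, with 5.29 and 5.21 in early ethanol brains and 5.27 and 5.30 in early saline brains, unlike Snord73b. Of the pair in Rps3, Snord15a was at background, with 5.76 and 5.67 in early ethanol brains and 5.58 and 5.77 in early saline brains. The pairs in Snhg3, in Snhg12 and in 2410006H16Rik each had both members led by early saline replicate 1, as had both measured snoRNAs of Rpl13a. Of those in Ncl, Snord82 had its highest early value in saline replicate 1 (11.42 and 11.49 in early ethanol brains, 11.75 and 11.13 in early saline brains) and Snora75 its lowest (5.96 and 6.00 in early ethanol brains, 5.90 and 6.23 in early saline brains). Snord49a and Snord49b, Snora73a and Snora73b, Snord73a and Snord73b, and Snord15a and Snord15b are copies of one snoRNA by name, and whether probes of one also bind the other was not tested.

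Genes of the proteins that build snoRNA particles were measured as mRNA on the same arrays. Of 15 probe sets for 11 C/D core and assembly genes, such as fibrillarin (Fbl), Nop56, Nop58 and Snu13, 13 were lower and 2 higher in the early comparison (median −0.10), and none had an unadjusted P under 0.05. Both ethanol arrays lay below both saline arrays in 7 of the 15 and above both in 0, against 18.9% and 7.5% of all tested. The 7 include every Snu13 probe set, so that 1 gene counts several times, and by narrow margins. One of them measured 11.41 and 11.40 in early ethanol brains, against 11.60 and 11.42 in early saline brains. Fbl measured 8.40 and 8.44 in early ethanol brains, against 8.59 and 8.44 in early saline brains, by the probe set with the higher values (−0.094 ± 0.097). By its other probe set it measured 6.54 and 6.48, against 6.85 and 6.57, without overlap (−0.20 ± 0.11). Of the 7 H/ACA genes, such as dyskerin (Dkc1), Nhp2, Nop10 and Gar1, 6 were lower and 1 higher (median −0.13), none with P under 0.05. Nhp2 measured 6.80 and 6.77 in early ethanol brains, against 7.20 and 6.86 in early saline brains. Early saline replicate 1 was the highest early array in 11 of the 15 C/D and 5 of the 7 H/ACA probe sets, against 34.8% of all tested. Every Snu13 probe set is again among the 11. Without that array the medians were −0.028 and 0.033. In the late comparison the medians were −0.058 and −0.024. The listed noncoding host genes, 6 of them measured by 12 probe sets, had medians of −0.050 in the early and 0.027 in the late comparison, and none passed the study's thresholds.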

How the data were processed

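Whole brains of adult male mice had been profiled on Affymetrix Mouse Gene 1.0 ST arrays. The deposited log2 values were used as the authors made them: arrays were read with Affymetrix Command Console, and Partek Genomics Suite gave probe set values by RMA, adjusted for GC content and quantile normalized (version 6.6 per the labels, an earlier version in the study's methods). The late arrays were assumed to have been treated like the early ones. Probe sets were named through the platform annotation, and of 35556 probe sets 12146 without a symbol were left out of the tests.

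Ethanol was compared with saline within each timing with limma 3.58.1 in R 4.3.3: the model held 4 group means over all 8 arrays, with moderated variances and Benjamini-Hochberg adjustment over 23410 probe sets. The fit was tested on simulated data. Counts are given at the study's thresholds, an unadjusted P under 0.05 with a change of 1.2-fold, beside the share of all tested probe sets. All P values are two-sided. With 2 arrays per group, an exact permutation test could not reach 0.05 and none was run, and the number of arrays limits the precision.

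The snoRNAs named with values were, for each timing and class, up to 5 per direction with the smallest P under 0.05, up to 3 per direction for early minus late, and every measured member of lists of processing snoRNAs and of snoRNAs of Gas5, Snhg1, Rpl13a and Rack1. Others were named after their values were seen, as the 15 led by early saline replicate 1, as neighbours in a host, or as examples. The members and lists were chosen with earlier results of these data known. Listed snoRNAs Snord64 and Snora35 had no probe set among the members.

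Host genes are those whose span contains the snoRNA in the RefSeq table of GRCm38.p6. That table gives no strand, so a host may lie on the other strand, and the gene Mcmdc2, which overlaps Snhg6 around Snord87, was not used as a host. Several probe sets of a host were summarized by their median. Host starts were taken from RefSeq promoters of the same build. No snoRNA sequence was used here. Alternatives were an unmoderated test on the 4 arrays of a timing, a fit to those 4 arrays, an intensity trend, median centring, quantile normalization over all 8 arrays, every probe set tested, 1 probe set per symbol, the lowest 25% removed, a replicate block and leaving out each array.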

Additional observations from a re-analysis of the deposited data

Results flagged for a closer look

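For 2 snoRNAs the ethanol and saline arrays were without overlap in both timings, but in opposite order. Snora44 was lower in both early ethanol arrays than in both early saline arrays and higher in both late ethanol arrays than in both late saline arrays, although its late values were not above background and the late difference of 0.14 was 0.017 without late ethanol replicate 1. Its early minus late effect was −0.68 ± 0.22 on the log2 scale (limma, adjusted P = 1.00). Snord14e had the same opposite order, but its late groups were barely apart, at 10.06 in ethanol replicate 1 and 10.05 in saline replicate 1. Its early minus late effect was −0.58 ± 0.18 (limma, adjusted P = 1.00). Of all tested probe sets 3.84% showed such an opposite order in both timings, against 2 of the 58 snoRNA probe sets, so the count is near the background.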

How the results depend on the processing

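With 2 pools per group, single arrays decided the counts. Over the alternatives that leave out 1 array, probe sets past the study's thresholds numbered 210 to 781 of all tested in the early comparison, 242 to 1750 in the late comparison and 233 to 1284 for early minus late; the main counts were 216, 272 and 465. H/ACA snoRNAs past them numbered 0 to 9 early and 0 to 1 late, and C/D snoRNAs 1 to 10 early and 1 to 4 late, the highest early counts being those without early saline replicate 2. Class medians ranged from −0.14 to 0.013 (H/ACA early), −0.15 to 0.015 (C/D early), 0.022 to 0.068 (H/ACA late) and −0.063 to 0.058 (C/D late), the early upper ends being without early saline replicate 1.

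In the unmoderated test on 4 arrays 60 probe sets passed early and 58 late, with 0 snoRNAs of either class in either timing. With every probe set tested, named or not, 669 passed early, 674 late and 854 for early minus late, and early C/D snoRNAs numbered 1. Quantile normalization over 8 arrays left 1 early C/D snoRNA and 2 late ones. The causes of these shifts were not tested.

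Deviations of arrays with the same replicate number from their group means correlated at 0.47 in the early and −0.46 in the late arrays, so the numbers were not taken to pair the samples. With a replicate block, 2 H/ACA and 3 C/D snoRNA probe sets passed early, and 1 of each class late. The early difference of Snord14e (−0.31) no longer passed, although the early C/D count was 2 in the main fit. With the late saline numbers crossed in that block, a setting chosen after seeing the data, 564 probe sets passed early, 519 late and 1099 for early minus late, with 4 H/ACA and 5 C/D snoRNAs early and 2 C/D snoRNAs late.

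The early differences of Snora44, Snord73b and Snord14e and the late difference of Snord95, which passed the thresholds, kept their direction under every alternative run. Some of the differences that did not pass the thresholds, late ones among them, changed sign with the array left out. Early differences ranged from −0.74 to 0.008 for Snord47, −0.60 to 0.041 for Snord33, −0.44 to 0.29 for Snord35a and −0.37 to 0.44 for Snord118. Of the values of the snoRNAs named by rule under all alternatives, 414 stayed on the same side of the unadjusted threshold, 15 lost it and 11 gained it.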

Other observations

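A further 15 probe sets list a snoRNA together with another gene and were left out by the rule of choice. Their median difference between ethanol and saline brains was −0.0065 in the early and −0.0081 in the late comparison, none passed the study's thresholds in either, and 2 of the 15 were led by early saline replicate 1 by more than 0.3 over each other early array.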
